A study of Homo sapiens with 24 samples.

Results

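Protein-folding chaperones of the cytosol and the mitochondria were followed in 2 leukemia cell lines treated with 8-position adenosine analogs. The set held 45 genes, taken by symbol from the 23354 genes of the deposited read count table. It covered HSP90 and its co-chaperones (8 genes), cytosolic HSP70 and HSP110 proteins (6), J-domain proteins (8), BAG proteins and a small heat shock protein (3), mitochondrial chaperones (5), the subunits of the chaperonin TRiC (8), prefoldin subunits (5) and heat shock factors (2).

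Bulk RNA came from MV4-11 and KG-1a, established human acute myeloid leukemia (AML) cell lines labelled wild type (WT). The cells were left untreated or treated with 1 μM 8-chloro-adenosine (8CA) or 1 μM 8-amino-adenosine (8AA) for 8 h or 24 h. Both compounds are adenosine analogs, and they differ in carrying a chlorine atom or an amino group at the 8-position of the base. Each of the 12 groups held 2 libraries, A and B. The untreated cells had a group of their own at each time, and its hours are given only by the sample titles. All cells were grown in Iscove's medium with 10% fetal bovine serum. No label says that A and B came from separate cultures, so every p-value measures the spread between these libraries, which may be technical.

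Chaperones bind unfolded or partly folded proteins, and many release them in cycles that consume ATP. HSP70 proteins receive clients from J-domain proteins and pass some of them to HSP90, while the ring chaperonins TRiC in the cytosol and HSP60 with HSP10 in the mitochondrial matrix enclose their clients. Heat shock factor HSF1 is the main activator of the inducible members, through repeats of nGAAn in their promoters, and rapidly dividing leukemia cells carry a high load of newly made protein.

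Heat shock elements were searched in the RefSeq windows from 250 bases before to 50 bases after each gene's start (GRCh38.p14), and 40 of the 45 members had a window. A gene with several RefSeq starts had several windows, and a match in any of them was counted. The windows of FKBP4, HSPA14, CCT6A, PFDN2 and HSF1 were not used here. The 3-unit element, GAANNTTCNNGAA or its reverse complement TTCNNGAANNTTC on either strand, was found in 7 of 40 members (17.5%) against 166 of 27305 symbols (0.608%). The shorter GAANNTTC, or TTCNNGAA on the other strand, which every 3-unit match also contains, was found in 19 of 40 members (47.5%) against 4417 of 27305 symbols (16.2%). The 7 members were HSPD1, HSP90AB1, DNAJB6, CHORDC1, HSPA8, HSP90AA1 and DNAJA1. The matches that lie before the start are shown because heat shock factors read such repeats and HSPD1, HSP90AB1, HSPA8 and HSP90AA1 are the most abundant members, and the match of DNAJA1 lies after its start. A match is a description of these letters and says nothing of whether a factor binds there.
HSPD1, at chr2:197500062-197500090 (minus strand): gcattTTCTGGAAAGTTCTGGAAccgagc
HSP90AB1, at chr6:44247770-44247798 (plus strand): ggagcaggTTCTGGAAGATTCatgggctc
HSP90AB1, at chr6:44247823-44247851 (plus strand): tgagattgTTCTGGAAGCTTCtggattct
DNAJB6, at chr7:157336865-157336893 (plus strand): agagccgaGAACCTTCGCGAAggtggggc
CHORDC1, at chr11:90223084-90223112 (minus strand): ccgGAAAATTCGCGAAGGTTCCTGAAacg
HSPA8, at chr11:123062346-123062374 (minus strand): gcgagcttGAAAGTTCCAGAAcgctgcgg
HSPA8, at chr11:123062171-123062199 (minus strand): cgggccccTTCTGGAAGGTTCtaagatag
HSP90AA1, at chr14:102087112-102087140 (minus strand): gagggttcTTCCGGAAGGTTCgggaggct
Capitals mark the 3-unit element, with overlapping matches joined. For HSPD1, HSP90AB1 and HSP90AA1 the start is an alternative RefSeq start. The near-identical genes HSPA1A and HSPA1B hold the shorter element, in capitals, and are shown because their reads cannot be fully told apart.
HSPA1A, at chr6:31815426-31815455 (plus strand): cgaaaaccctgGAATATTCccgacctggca
HSPA1B, at chr6:31827622-31827651 (plus strand): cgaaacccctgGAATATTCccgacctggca

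Libraries held 18633963 to 24520078 counts, with a median of 21402883. Each comparison was made with the quasi-likelihood test of edgeR, with p-values adjusted by Benjamini-Hochberg, over 12800 genes in MV4-11 (all 45 members) and 12711 in KG-1a (44 members, without HSPA1A). Levels are given as CPM, the counts relative to the library size after TMM scaling over all libraries, changes as log2 fold changes with their standard error (SE), and a gene is called changed at an adjusted p under 0.05. The libraries A and B of KG-1a under 8AA at 24 h differed more from each other (chi-square per degree of freedom 12.2) than the other pairs (1.43 to 5.20). Of 10 myeloid markers, SPI1, CD33, FLT3, LYZ, MPO, CSF1R and MEIS1 were lower in every KG-1a library than in any MV4-11 library, with LYZ at 0.574 to 1.33 CPM against 2665 to 3773 and MEIS1 at 0, while CD34 (325 to 629 CPM against 0 to 0.175), PTPRC (688 to 788 against 80.9 to 152) and HOXA9 (22.3 to 27.8 against 7.11 to 9.40) were higher in KG-1a. In KG-1a under 8AA at 24 h, 11 markers of other cell types summed to 71.8 to 85.1 CPM against 42.2 to 42.3 in the untreated libraries, with EPCAM, MS4A1, COL1A2, KRT18, HBB and HBA1 at 0. Most of this sum was from 1 gene, CD3E, a subunit of the T cell receptor complex, at 78.3 and 67.0 CPM there against 36.3 and 36.6 untreated (higher by 0.997 on the log2 scale, adjusted p = 1.81e-07 by edgeR's Benjamini-Hochberg adjusted quasi-likelihood test), while the other 10 summed to 4.82 to 6.76 against 5.69 to 5.90. CD3E was also higher under 8AA at 8 h (log2 fold change 0.31), was at 0 in every MV4-11 library, and its part in the results was not tested. In bulk RNA, fewer cells of a kind and less RNA per cell cannot be told apart.

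The set was abundant in untreated cells. Per exon length (RPKM, the CPM divided by exon kilobases), HSPA8, the constitutive cytosolic HSP70, stood highest at 8 h, with 1309.8 ± 28.6 RPKM in MV4-11 and 1619.9 ± 6.09 in KG-1a (SD, n = 2). The constitutive HSP90AB1 followed with 956 ± 16.4 and 969 ± 18.8 RPKM, then the inducible HSP90AA1 with 798 ± 12.5 and 600.4 ± 1.96 RPKM. The mitochondrial HSP60 gene HSPD1 was next in order, at 434 ± 2.70 RPKM in MV4-11 and 385 ± 7.46 in KG-1a. These 4 levels did not overlap within a line. DNAJB4, a J-domain protein best known from muscle, was lowest in MV4-11 at 3.66 ± 0.363 RPKM and stood at 5.01 ± 0.940 RPKM in KG-1a. HSPE1, the HSP10 partner of HSPD1, was listed at only 53.7 ± 4.08 and 54.0 ± 5.43 RPKM.

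The untreated lines differed in 42 of 45 members, 32 higher and 10 lower in MV4-11, against 43.1% higher and 44.3% lower among the 14055 genes tested over all 24 libraries. HSPB1, the small heat shock protein HSP27, was higher in MV4-11 by 2.89 on the log2 scale (SE 0.0613). BAG3, the co-chaperone that links HSP70 to selective autophagy, was higher by 2.62 (SE 0.0631), and PTGES3, the HSP90 co-chaperone p23, by 1.66. CDC37, which brings kinases to HSP90, was higher in MV4-11 by 1.40. HSF2 differed by −1.35, CHORDC1 by −1.17, BAG2 by −1.05, FKBP4 by −0.97 and DNAJC9 by −0.80, all lower in MV4-11. Of the calls other than HSPA1A, 40 of 41 were made in every fit that left out 1 library. HSPA1A held 458 to 1177 counts per library in MV4-11 and 0 to 4 in KG-1a, 25 in all, while its copy HSPA1B held 314 to 788 and 137 to 435. HSPA1A could therefore not be followed in KG-1a, and the summed counts of the pair are given with the fold changes of HSPA1B.

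More members fell than rose in 7 of the 8 comparisons with untreated cells. Here fell and rose are meant relative to the other RNAs of a library, as RNA per cell is not known from these counts. Summed over all members, MV4-11 held 23449.7 and 23522 CPM untreated at 8 h, 19848 and 20412 under 8CA and 17598 and 18211 under 8AA. At 24 h the sums in this line were 21004 and 20782 untreated, 15713 and 15885 under 8CA and 16436 and 17163 under 8AA. Each treated sum of MV4-11 was below both untreated sums of its time. KG-1a held 21032 and 20956 CPM untreated at 8 h, 22925 and 22391 under 8CA and 17766 and 17171 under 8AA. Here the 8CA libraries lay above the untreated ones and the 8AA libraries below. At 24 h KG-1a held 18065 and 18026 CPM untreated, 13535 and 13509 under 8CA and 12176 and 10933 under 8AA. There the treated libraries lay below the untreated ones, and the 8AA libraries below those of 8CA. The sums are dominated by HSPA8, HSP90AA1 and HSP90AB1.

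In MV4-11 under 8CA at 8 h, 24 of 45 members fell and 0 rose, against 5.77% and 4.58% of all genes, with a median log2 fold change of −0.16 over the members. Under 8AA at 8 h, 35 fell and 0 rose (15.6% and 13.6% of all genes), with a median of −0.32. At 24 h, 34 fell and 0 rose under 8CA (22.7% and 21.2% of all genes, median −0.34). For 8AA at 24 h, 35 fell and 0 rose (15.3% and 13.9%, median −0.26). The median over all genes tested lay within 0.10 of 0 in each of these comparisons. A fit that leaves out 1 library keeps only 1 library in that group. A call lost in such a fit, here and below, therefore does not by itself show that the change rests on the library left out. Leaving out 1 library at a time, 12 of the 24 members called under 8CA at 8 h stayed called in every fit, and the count dropped to 14 without untreated A or without 8CA B. Those 12 were HSP90AA1, STIP1, FKBP4, HSPA1A, HSPA1B, HSPA8, HSPA4, HSPH1, DNAJA1, DNAJB1, BAG3 and TCP1. Of the 35 calls under 8AA at 8 h, 31 were made in every such fit, and DNAJC9, BAG2, PFDN6 and HSF1 were not. Of the 34 under 8CA at 24 h, 32 were, without CDC37 and PFDN6. Of the 35 under 8AA at 24 h, 25 were, without CDC37, DNAJA2, DNAJC2, DNAJC7, BAG3, HSPB1, TRAP1, DNAJA3, PFDN2 and PFDN6. The calls with a log2 fold change of at least 0.5 in size numbered 2 and 8 at 8 h and 11 and 2 at 24 h, under 8CA and 8AA. The share of all genes at this cut was not computed. In place of 0 members, 1 was called higher without library A of 8AA, at 8 h and at 24 h.

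KG-1a under 8CA at 8 h stood apart, with 0 members lower and 2 higher, HSPA1B and HSPH1, against 0.181% and 0.7% of all genes, and a median of 0.06. Under 8AA at 8 h, 26 of 44 fell and 2 rose, DNAJB6 and DNAJC9 (18.0% and 16.7% of all genes, median −0.19). At 24 h, 33 fell and 0 rose under 8CA (24.0% and 23.4% of all genes, median −0.42). For 8AA at 24 h, 36 fell and 2 rose, DNAJB6 and PFDN5 (26.6% and 25.4%, median −0.52). Both calls under 8CA at 8 h were lost when single libraries were left out. The count of higher members was 0 without untreated A or 8CA A, and 1 without untreated B or 8CA B. Under 8AA at 8 h, 19 of 28 calls were made in every fit with 1 library left out, and 1 member was higher in each of those fits. The 9 others were AHSA1, CHORDC1, STIP1, PTGES3, HSPA14, DNAJA2, DNAJB1, DNAJB6 and CCT7. Of the calls at 24 h, 27 of 33 under 8CA and 31 of 38 under 8AA were made in every such fit. The others were HSPA1B, DNAJC2, DNAJC9, BAG3, HSPA9 and PFDN2 under 8CA, and HSPA14, DNAJA2, DNAJB6, DNAJC7, HSPB1, PFDN5 and HSF2 under 8AA. Under 8AA at 24 h, 1 member was higher without untreated A and 0 without untreated B, while the lower count was 38 without 8AA A and 32 without 8AA B. Decreases of at least 0.5 on the log2 scale were called for 2 members under 8AA at 8 h, and at 24 h for 15 under 8CA and 25 under 8AA. For this cut too, the share of all genes was not computed.

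**Figure D1:**
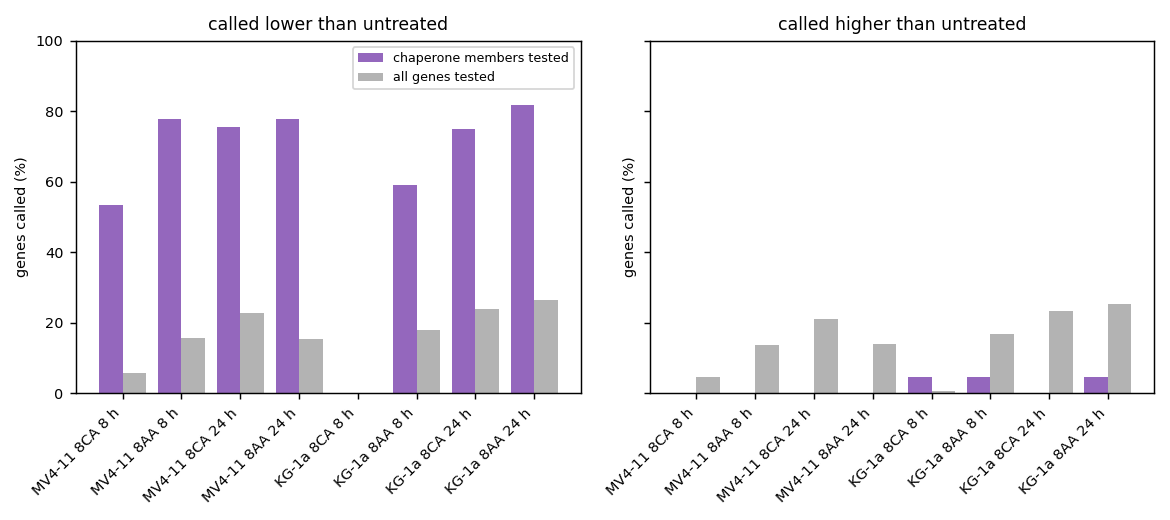
Percent of chaperone members tested (purple) and of all genes tested (grey) called lower (left) or higher (right) than untreated in each comparison, by edgeR's Benjamini-Hochberg adjusted quasi-likelihood test. Among members the lower calls run from 0 of 44 in KG-1a under 8CA at 8 h to 36 of 44 in KG-1a under 8AA at 24 h, and no comparison has more than 2 higher calls.

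Over comparisons that share untreated libraries within a time point, 26 members fell in each of the 4 comparisons at 24 h and 20 in all 4 comparisons of MV4-11. DNAJB4 and PFDN5 were called lower in none. The share of all genes called lower in all 4 comparisons was not computed, so these counts describe the members only. For the counts by role below, the shares of all genes are those given above for each comparison. The levels of single libraries are also set against untreated below. Over all genes tested, both treated libraries lay below both untreated ones for 22.6% to 38.3%, by comparison. Both lay above for 21.9% to 39%. Groups of 2 libraries that do not overlap are thus common, and their order is a description only.

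**Figure D2:**
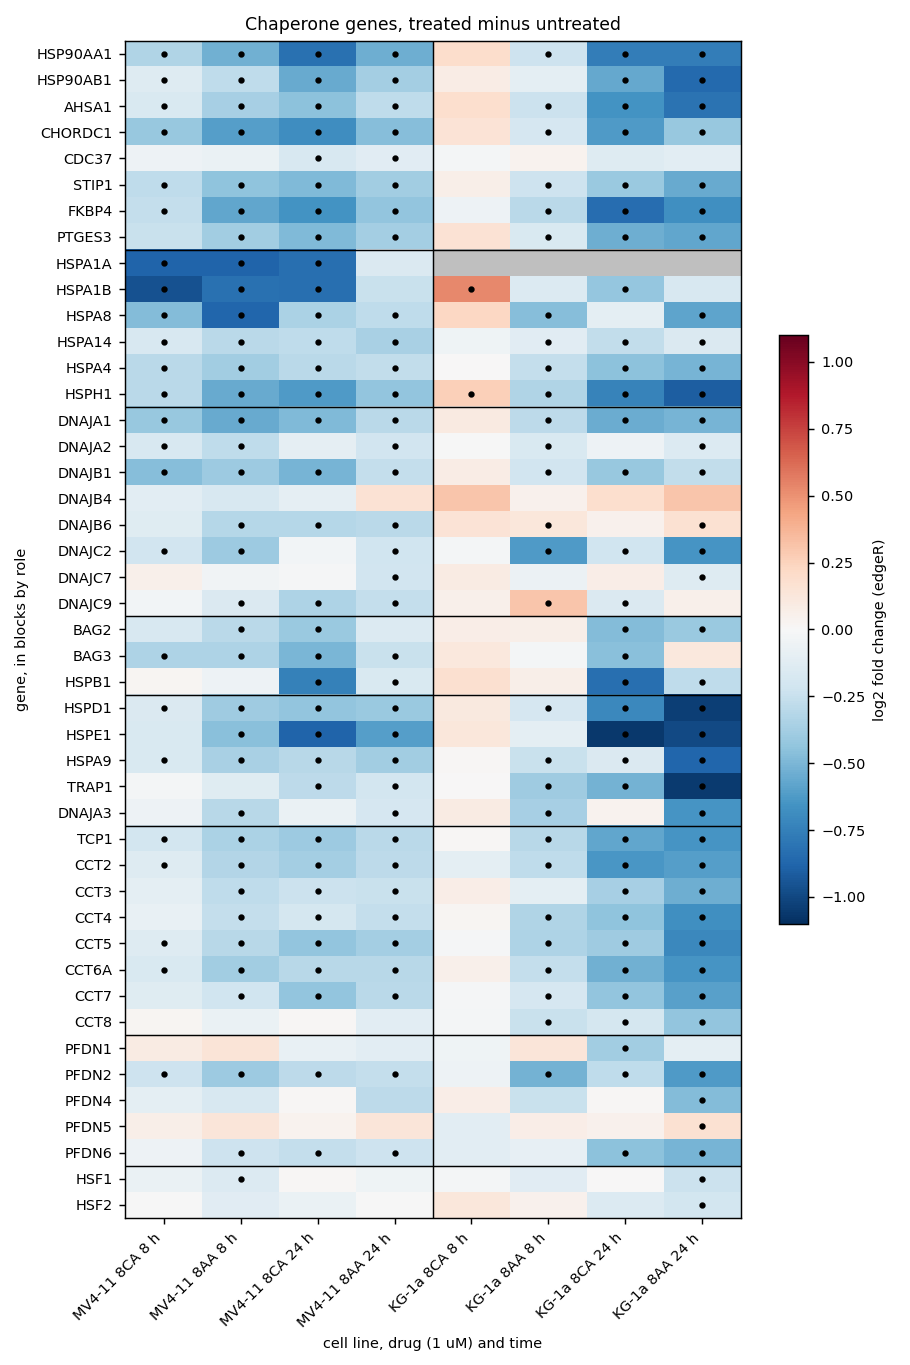
Log2 fold change against untreated for each member (rows of the map, in blocks by role) in the 8 comparisons (columns), with blue for lower, red for higher and grey for HSPA1A, not tested in KG-1a. Black dots mark calls, and the column of KG-1a under 8CA at 8 h holds 2 of them.

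HSP90 completes the folding of kinases and steroid receptors, helped by co-chaperones that deliver clients or pace its ATP cycle. In MV4-11 6 of the 8 HSP90 genes and co-chaperones fell under 8CA at 8 h (median −0.25), 7 under 8AA at 8 h (−0.41), and all 8 at 24 h under 8CA (−0.52) and under 8AA (−0.38). KG-1a had 0 calls under 8CA at 8 h, 6 lower under 8AA at 8 h and 7 lower with each drug at 24 h (medians −0.59 and −0.62). HSP90AA1 in MV4-11 was at 3528 and 3607 CPM untreated, 2849 and 2855 under 8CA, and 2454 and 2583 under 8AA at 8 h. At 24 h its levels there were 2926 and 2867 CPM untreated, 1661 and 1667 under 8CA, and 1976 and 2062 under 8AA. Each treated library of MV4-11 lay below both untreated libraries of its time. KG-1a held HSP90AA1 at 2691 and 2679 CPM untreated, 3090.2 and 3038 under 8CA, and 2329 and 2210.2 under 8AA at 8 h. By 24 h the levels were 2116 and 2060.5 CPM untreated, 1245 and 1221 under 8CA, and 1294 and 1166 under 8AA. The 8CA libraries of KG-1a were thus above untreated at 8 h and below at 24 h, and the 2 drugs overlapped at 24 h. Under 8CA at 24 h, edgeR's Benjamini-Hochberg adjusted quasi-likelihood test gave HSP90AA1 a log2 fold change of −0.82 (SE 0.0402, adjusted p = 1.59e-09) in MV4-11 and −0.76 (SE 0.0489, adjusted p = 1.12e-08) in KG-1a. Under 8AA at 24 h the same test gave −0.54 (SE 0.0400, adjusted p = 4.53e-07) and −0.76 (SE 0.0489, adjusted p = 7.77e-09).

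HSP90AB1 in MV4-11 was at 2798 and 2731 CPM untreated, 2482 and 2566 under 8CA, and 2296 and 2366 under 8AA at 8 h. In that line it stood at 2522 and 2483 CPM untreated, 1722 and 1742 under 8CA, and 1917 and 1998 under 8AA at 24 h. All treated libraries were below untreated, and the 8AA libraries lay below those of 8CA at 8 h and above them at 24 h. In KG-1a it stood at 2842 and 2765 CPM untreated, 3020.5 and 2906 under 8CA, and 2628 and 2551 under 8AA at 8 h. At 24 h HSP90AB1 stood at 2474 and 2504 CPM untreated, 1697 and 1671 under 8CA, and 1458 and 1293 under 8AA. Its groups followed the order seen for HSP90AA1, except that 8AA lay below 8CA in KG-1a at 24 h. The log2 fold changes at 24 h were −0.55 and −0.37 in MV4-11 and −0.56 and −0.85 in KG-1a (8CA first, then 8AA). Its call under 8CA at 8 h in MV4-11 (−0.14) was lost without untreated A, 8CA A or 8CA B, with adjusted p up to 0.139 by edgeR's Benjamini-Hochberg adjusted quasi-likelihood test. FKBP4, the immunophilin FKBP52 of steroid receptor complexes, had its largest decrease in KG-1a under 8CA at 24 h. In MV4-11 it was at 395 and 405 CPM untreated, 326 and 346 under 8CA, and 271 and 279.6 under 8AA at 8 h. The 24 h levels of FKBP4 were 356 and 354 CPM untreated, 217 and 238 under 8CA, and 261 and 271 under 8AA. Its order in MV4-11 was that of HSP90AB1. KG-1a held FKBP4 at 807 and 772 CPM untreated, 764 and 752 under 8CA, and 653 and 627 under 8AA at 8 h. By 24 h FKBP4 was at 685 and 692 CPM untreated, 387 and 381 under 8CA, and 464 and 399 under 8AA. Every treated library of FKBP4 lay below the untreated libraries of its line and time. By edgeR's Benjamini-Hochberg adjusted quasi-likelihood test, its changes at 24 h were −0.66 (SE 0.0480, adjusted p = 5.89e-08) and −0.43 (SE 0.0479, adjusted p = 1.22e-05) in MV4-11 and −0.84 (SE 0.0572, adjusted p = 2.04e-08) and −0.67 (SE 0.0570, adjusted p = 1.3e-07) in KG-1a, under 8CA and 8AA in turn.

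Most other co-chaperones fell at 24 h as well. At 24 h AHSA1, which speeds the ATPase of HSP90, changed by −0.45 and −0.28 in MV4-11 and by −0.66 and −0.82 in KG-1a, under 8CA and 8AA. STIP1 (HOP), the bridge between HSP70 and HSP90, changed by −0.49 and −0.38 in MV4-11 and by −0.41 and −0.56 in KG-1a. PTGES3 changed by −0.49 and −0.38, and by −0.54 and −0.57. For CHORDC1, an HSP90-binding protein with zinc-binding domains, the values were −0.68 and −0.47, and −0.63 and −0.42. All 16 of these changes were called. CDC37 was the exception, at −0.17 and −0.13 in MV4-11, both called but each lost on leaving out a library, and at −0.14 and −0.12 in KG-1a, neither called.

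HSP70 proteins hold short hydrophobic stretches of unfolded chains, and HSP110 proteins exchange their nucleotide. In MV4-11 all 6 of these genes fell at 8 h under 8CA (median −0.39) and under 8AA (−0.69), all 6 under 8CA at 24 h (−0.48), and 4 under 8AA at 24 h (−0.28). In KG-1a 2 of 5 rose under 8CA at 8 h (median 0.22), and 4 of 5 fell under 8AA at 8 h (−0.27), under 8CA at 24 h (−0.42) and under 8AA at 24 h (−0.51). HSPA8 in MV4-11 was at 3686 and 3801 CPM untreated, 2635 and 2789 under 8CA, and 2023 and 2145 under 8AA at 8 h. At 24 h MV4-11 held it at 3082 and 2968 CPM untreated, 2399.9 and 2427 under 8CA, and 2445 and 2596 under 8AA. The treated libraries were below untreated at both times, and the 8AA libraries were below those of 8CA at 8 h and above them at 24 h. In KG-1a HSPA8 was at 4617 and 4642 CPM untreated, 5561 and 5245 under 8CA, and 3370.3 and 3259.7 under 8AA at 8 h. Its levels there at 24 h were 3844 and 3916 CPM untreated, 3557 and 3639 under 8CA, and 2786 and 2412 under 8AA. At 8 h, 8CA was above and 8AA below untreated, and at 24 h both were below. For HSPA8, edgeR's Benjamini-Hochberg adjusted quasi-likelihood test gave −0.88 (SE 0.0455, adjusted p = 1.14e-08) under 8AA at 8 h in MV4-11 and −0.47 (SE 0.0562, adjusted p = 1.38e-05) in KG-1a. Under 8CA the change was −0.48 at 8 h and −0.35 at 24 h in MV4-11, both called, and 0.22 and −0.11 in KG-1a, neither called.

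HSPA1A and HSPA1B encode the stress-inducible HSP70. HSPA1A in MV4-11 was at 60.7 and 53.6 CPM untreated, 31.2 and 31.1 under 8CA, and 32.0 and 31.3 under 8AA at 8 h. Levels of HSPA1A at 24 h were 31.8 and 38.1 CPM untreated, 19.4 and 20.6 under 8CA, and 31.7 and 32.0 under 8AA. The treated libraries of HSPA1A were below untreated apart from 8AA at 24 h, which overlapped. HSPA1B there was at 40.6 and 31.1 CPM untreated, 19.6 and 17.4 under 8CA, and 21.7 and 19.7 under 8AA at 8 h. For HSPA1B the 24 h values were 25.1 and 27.0 CPM untreated, 15.5 and 14.1 under 8CA, and 23.1 and 21.3 under 8AA. Every treated library of HSPA1B was below untreated, and for both genes the 8AA libraries were above those of 8CA at both times. The summed counts of the pair changed by −0.91 under 8CA and −0.86 under 8AA at 8 h, and by −0.83 under 8CA at 24 h, all called. Under 8AA at 24 h the sum changed by −0.19, with an adjusted p = 0.084 by edgeR's Benjamini-Hochberg adjusted quasi-likelihood test. In KG-1a HSPA1B was at 12.3 and 14.0 CPM untreated, 20.05 and 17.9 under 8CA, and 11.4 and 12.1 under 8AA at 8 h. At 24 h HSPA1B stood at 10.0 and 8.30 CPM untreated, 7.16 and 6.52 under 8CA, and 7.88 and 8.37 under 8AA. The KG-1a libraries of HSPA1B under 8CA were above untreated at 8 h and below at 24 h, while those under 8AA were below at 8 h and overlapped untreated at 24 h. The summed counts of the pair in KG-1a changed by 0.53 under 8CA and −0.14 under 8AA at 8 h, and by −0.42 and −0.19 at 24 h. HSPA1B in KG-1a rose by 0.53 under 8CA at 8 h, with an adjusted p = 0.0199 by edgeR's Benjamini-Hochberg adjusted quasi-likelihood test, and this call was lost with any of the 4 libraries left out, with adjusted p up to 0.293. Its decrease under 8CA at 24 h (−0.42) was lost without untreated A or 8CA B. HSPA1A held 0 and 0.0943 CPM untreated, 0.184 and 0.101 under 8CA and 0.173 and 0.124 under 8AA in KG-1a at 8 h. Its 24 h values there were 0.0968 and 0.104 CPM untreated, 0 and 0.190 under 8CA, and 0.0800 and 0 under 8AA, and no KG-1a library held more than 4 counts of it.

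HSPH1, the HSP110 protein that disaggregates with HSP70, was among the members that changed most between times in KG-1a. In MV4-11 it was at 593 and 608 CPM untreated, 484 and 503 under 8CA, and 420.2 and 413 under 8AA at 8 h. The 24 h levels of HSPH1 were 539 and 532 CPM untreated, 358 and 347 under 8CA, and 397 and 407 under 8AA. All treated libraries there were below untreated. KG-1a held HSPH1 at 397 and 409 CPM untreated, 494 and 472 under 8CA, and 326 and 312 under 8AA at 8 h. By 24 h HSPH1 was at 302 and 299 CPM untreated, 179 and 181 under 8CA, and 163 and 157 under 8AA. Under 8CA HSPH1 was above untreated at 8 h and below at 24 h, and under 8AA it was below at both times. Its increase under 8CA at 8 h, 0.26 (SE 0.0427, adjusted p = 0.0068) by edgeR's Benjamini-Hochberg adjusted quasi-likelihood test, was lost without untreated A or 8CA A, with adjusted p up to 0.176. At 24 h the same test gave −0.73 (SE 0.0442, adjusted p = 5.42e-09) under 8CA and −0.91 (SE 0.0443, adjusted p = 6.46e-10) under 8AA. HSPA4, another HSP110 relative, changed in MV4-11 by between −0.38 and −0.27 over its 4 comparisons, all called, and at 24 h in KG-1a by −0.45 and −0.51. HSPA14, a ribosome-associated HSP70, changed by −0.28 and −0.35 in MV4-11 and by −0.27 and −0.16 in KG-1a at 24 h, all called, the last lost without untreated B.

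J-domain proteins stimulate the ATPase of HSP70 and choose its clients, and they moved less evenly. In MV4-11 4 of 8 fell under 8CA at 8 h (50% against 5.77% of all genes) and 6 under 8AA at 8 h (75% against 15.6%). At 24 h in this line 4 fell under 8CA (50% against 22.7%) and 7 under 8AA (87.5% against 15.3%). KG-1a had 0 calls under 8CA at 8 h, and 4 lower (50% against 18.0%) and 2 higher (25% against 16.7%) under 8AA. At 24 h KG-1a had 4 lower under 8CA (50% against 24.0%). Under 8AA it had 5 lower (62.5% against 26.6%) and 1 higher (12.5% against 25.4%). DNAJB1, the main inducible HSP40, was at 217 and 222 CPM untreated, 153 and 167 under 8CA, and 162 and 179 under 8AA in MV4-11 at 8 h. Levels of DNAJB1 at 24 h were 189 and 184 CPM untreated, 130.3 and 135 under 8CA, and 156 and 159 under 8AA. All treated libraries of MV4-11 were below untreated. In KG-1a it stood at 123 and 119.9 CPM untreated, 133 and 124 under 8CA, and 106 and 103 under 8AA at 8 h. For DNAJB1 the 24 h values were 101 and 99.9 CPM untreated, 75.8 and 74.0 under 8CA, and 87.3 and 78.5 under 8AA. In KG-1a the treated libraries were below untreated except under 8CA at 8 h, where they were above. DNAJB1 changed in MV4-11 by −0.47 under 8CA and −0.40 under 8AA at 8 h, and by −0.51 and −0.26 at 24 h. At 24 h in KG-1a the changes were −0.42 and −0.27. All 6 were called, and its call under 8AA at 8 h in KG-1a (−0.21) was lost without untreated A or 8AA B.

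DNAJC2, the ribosome-associated protein MPP11, was lower under 8AA than under 8CA by the direct test in KG-1a, with differences of −0.60 at 8 h and −0.43 at 24 h on the log2 scale. In MV4-11 the difference at 24 h (−0.19) was called but lost without 8CA A or 8AA B, where it was −0.13 in each, and that at 8 h (−0.19) was not called. It was at 74.8 and 70.0 CPM untreated, 65.4 and 60.9 under 8CA, and 56.1 and 55.8 under 8AA in MV4-11 at 8 h. At 24 h DNAJC2 stood at 62.2 and 63.5 CPM untreated, 65.0 and 59.7 under 8CA, and 57.1 and 52.6 under 8AA. Under 8CA it overlapped untreated at 24 h in MV4-11, and the other treated groups there were below. KG-1a levels were 33.7 and 34.1 CPM untreated, 33.4 and 33.5 under 8CA, and 23.0 and 20.8 under 8AA at 8 h. The 24 h levels of DNAJC2 were 29.6 and 27.0 CPM untreated, 24.3 and 24.2 under 8CA, and 16.4 and 19.8 under 8AA. The 8AA libraries were below the 8CA libraries in both lines and at both times. In KG-1a edgeR's Benjamini-Hochberg adjusted quasi-likelihood test gave −0.62 (SE 0.0826, adjusted p = 3.65e-05) under 8AA at 8 h and −0.65 (SE 0.0867, adjusted p = 1.37e-05) at 24 h. Under 8CA at 24 h the values were −0.03 in MV4-11, not called, and −0.22 in KG-1a, a call lost without untreated A, 8CA A or 8CA B. In MV4-11 its call under 8CA at 8 h was lost without untreated A, untreated B or 8CA B, and that under 8AA at 24 h without untreated A, untreated B or 8AA B. DNAJA1, an HSP40 that works with cytosolic HSP70, changed at 24 h by −0.49 and −0.30 in MV4-11 and by −0.54 and −0.51 in KG-1a. DNAJB6, known to hold back polyglutamine aggregation, fell in MV4-11 under 8AA at 8 h (−0.32) and with both drugs at 24 h (−0.32 and −0.30). In KG-1a it rose under 8AA, by 0.13 at 8 h, a call lost with any of the 4 libraries left out, and by 0.17 at 24 h, lost without untreated B. DNAJC9, which also chaperones histones, fell in MV4-11 at 24 h under 8CA (−0.34) and 8AA (−0.26), and under 8AA at 8 h (−0.16, a call lost without untreated A, untreated B or 8AA B). In KG-1a it also fell under 8CA at 24 h (−0.16, lost without untreated B or 8CA B), and it rose under 8AA at 8 h (0.30). DNAJA2, an HSP40 close to DNAJA1, ranged from −0.28 to −0.01, DNAJC7, which binds both HSP70 and HSP90, from −0.21 to 0.09 and DNAJB4 from −0.17 to 0.31 over the 8 comparisons, and no value of DNAJB4 was called.

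BAG proteins release nucleotide from HSP70, and small heat shock proteins hold unfolded chains without ATP. HSPB1 in MV4-11 was at 139 and 145 CPM untreated, 137 and 153 under 8CA, and 133 and 147 under 8AA at 8 h. At 24 h its levels were 126 and 128 CPM untreated, 74.7 and 79.1 under 8CA, and 112 and 118 under 8AA. Libraries overlapped at 8 h, while at 24 h the order was untreated, 8AA, then 8CA, without overlap. In KG-1a HSPB1 was at 16.96 and 17.4 CPM untreated, 21.3 and 17.6 under 8CA, and 17.6 and 18.1 under 8AA at 8 h. By 24 h HSPB1 was at 18.6 and 19.5 CPM untreated, 11.1 and 10.3 under 8CA, and 17.4 and 13.8 under 8AA. Both treated groups of KG-1a were above untreated at 8 h, where neither change was called. They were below at 24 h, where the 8CA libraries were lowest. By edgeR's Benjamini-Hochberg adjusted quasi-likelihood test, 8CA at 24 h gave −0.74 (SE 0.0607, adjusted p = 1.87e-07) in MV4-11 and −0.83 (SE 0.117, adjusted p = 3.44e-05) in KG-1a. Under 8AA the changes at 24 h were −0.17 and −0.28. The call in MV4-11 was lost with any of the 4 libraries left out. In KG-1a it was lost without untreated A, untreated B or 8AA B, and the value was −0.47 without 8AA A and −0.13 without 8AA B. BAG3 was at 49.8 and 48.1 CPM untreated, 38.4 and 39.5 under 8CA, and 37.4 and 41.6 under 8AA in MV4-11 at 8 h. Levels of BAG3 at 24 h were 40.6 and 39.8 CPM untreated, 29.4 and 28.1 under 8CA, and 32.8 and 36.1 under 8AA. In MV4-11 every treated library of BAG3 was below untreated. KG-1a held little BAG3, 7.44 and 7.92 CPM untreated, 8.16 and 8.51 under 8CA, and 7.21 and 7.79 under 8AA at 8 h. For BAG3 the 24 h values were 6.19 and 7.31 CPM untreated, 5.05 and 4.71 under 8CA, and 7.76 and 6.76 under 8AA. In KG-1a the 8AA libraries overlapped the untreated ones, and those of 8CA were above at 8 h, without a call, and below at 24 h. BAG3 changed by −0.50 in MV4-11 and −0.46 in KG-1a under 8CA at 24 h, both called, the latter lost without untreated B or 8CA B. Under 8AA at 24 h it changed by −0.24 in MV4-11, a call lost without untreated A or 8AA A, and by 0.12 in KG-1a, not called. BAG2, an inhibitor of the ubiquitin ligase CHIP, fell under 8CA at 24 h by 0.41 in MV4-11 and 0.48 in KG-1a on the log2 scale. Under 8AA at 24 h it changed by −0.41 in KG-1a, which was called, and by −0.15 in MV4-11, which was not.

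Mitochondrial chaperones import and fold proteins of the matrix, and in KG-1a at 24 h the lowest member of the set was HSPE1 under 8CA and TRAP1 under 8AA. In MV4-11 2 of 5 fell under 8CA at 8 h (median −0.16), 4 under 8AA at 8 h (−0.36), 4 under 8CA at 24 h (−0.31) and 5 under 8AA at 24 h (−0.38). KG-1a had 0 calls under 8CA at 8 h (0.09), 4 lower under 8AA at 8 h (−0.25), 4 under 8CA at 24 h (−0.52) and 5 under 8AA at 24 h (−0.997). HSPD1 in MV4-11 was at 1584 and 1569.8 CPM untreated, 1412 and 1437 under 8CA, and 1220.5 and 1228 under 8AA at 8 h. At 24 h the levels were 1478 and 1483 CPM untreated, 1122 and 1104 under 8CA, and 1111 and 1151 under 8AA. Treated libraries were below untreated at both times. KG-1a held HSPD1 at 1382 and 1420 CPM untreated, 1508 and 1504 under 8CA, and 1239 and 1210.3 under 8AA at 8 h. By 24 h it was at 1251 and 1212 CPM untreated, 755 and 751 under 8CA, and 620.3 and 581 under 8AA. The 8CA libraries of KG-1a were above untreated at 8 h, and at 24 h they lay below untreated with the 8AA libraries lower still. The change of HSPD1 at 24 h by edgeR's Benjamini-Hochberg adjusted quasi-likelihood test was −0.43 (SE 0.0378, adjusted p = 3.92e-07) under 8CA and −0.41 (SE 0.0379, adjusted p = 3.31e-06) under 8AA in MV4-11. In KG-1a that test gave −0.71 (SE 0.0425, adjusted p = 5.27e-09) under 8CA and −1.03 (SE 0.0427, adjusted p = 1.15e-10) under 8AA. In MV4-11 at 8 h the call under 8CA (−0.16) was lost without untreated A or 8CA A.

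HSPE1 lies head to head with HSPD1 on chromosome 2, and the table's intervals of the pair, chr2:198364721-198368187 (plus strand) and chr2:198351308-198364998 (minus strand) in a build that it does not name, overlap. HSPE1 overlaps, on the same strand, the read-through gene HSPE1-MOB4, which was listed at 0 in every library, and 26 pseudogenes carry its name in GENCODE 29, so its level is uncertain. In MV4-11 it was at 48.2 and 53.7 CPM untreated, 45.1 and 46.6 under 8CA, and 36.8 and 38.7 under 8AA at 8 h. At 24 h HSPE1 stood at 43.3 and 47.5 CPM untreated, 24.0 and 26.2 under 8CA, and 29.6 and 30.9 under 8AA. All treated libraries lay below untreated there. KG-1a held HSPE1 at 47.6 and 54.9 CPM untreated, 56.9 and 55.0 under 8CA, and 46.3 and 48.3 under 8AA at 8 h. The 24 h levels of HSPE1 were 43.4 and 41.5 CPM untreated, 19.7 and 21.0 under 8CA, and 19.8 and 22.8 under 8AA. Only at 24 h were both drugs below untreated in KG-1a, and they overlapped each other. At 24 h edgeR's Benjamini-Hochberg adjusted quasi-likelihood test gave HSPE1 −0.88 (SE 0.0737, adjusted p = 2.6e-07) under 8CA and −0.61 (SE 0.0729, adjusted p = 2.53e-05) under 8AA in MV4-11, and −1.06 (SE 0.0837, adjusted p = 9.21e-08) and −0.997 (SE 0.0826, adjusted p = 1.03e-07) in KG-1a. HSPA9, the mitochondrial HSP70 mortalin, was at 781 and 793 CPM untreated, 686 and 723 under 8CA, and 617 and 637 under 8AA in MV4-11 at 8 h. By 24 h HSPA9 was at 758 and 740 CPM untreated, 612 and 616 under 8CA, and 568 and 601 under 8AA. All treated libraries of HSPA9 in MV4-11 were below untreated. In KG-1a HSPA9 was at 435 and 428 CPM untreated, 438 and 434 under 8CA, and 369 and 354 under 8AA at 8 h. Levels of HSPA9 at 24 h were 372 and 370 CPM untreated, 332 and 332 under 8CA, and 213 and 191 under 8AA. The 8AA libraries were lowest in both lines at both times. HSPA9 changed in KG-1a at 24 h by −0.87 (SE 0.0489, adjusted p = 2.06e-09) under 8AA by edgeR's Benjamini-Hochberg adjusted quasi-likelihood test, and by −0.16 under 8CA, a call lost with any of the 4 libraries left out. In MV4-11 its call under 8CA at 8 h (−0.17) was lost without untreated B or 8CA A.

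TRAP1, the mitochondrial HSP90, was among the members with the largest decreases. It was at 314 and 311 CPM untreated, 296 and 323 under 8CA, and 283 and 299 under 8AA in MV4-11 at 8 h. For TRAP1 the 24 h values were 301 and 289 CPM untreated, 239 and 251 under 8CA, and 251 and 268 under 8AA. In MV4-11 the 8CA libraries overlapped untreated at 8 h, and the other treated libraries were below. KG-1a held TRAP1 at 160 and 159 CPM untreated, 159 and 161 under 8CA, and 124 and 118 under 8AA at 8 h. At 24 h TRAP1 stood at 129 and 139 CPM untreated, 96.4 and 90.3 under 8CA, and 71.6 and 57.0 under 8AA. In KG-1a each treated library was below untreated at 24 h, and the 8AA libraries were below those of 8CA at both times. The change of TRAP1 in KG-1a was −0.39 under 8AA at 8 h, −0.52 under 8CA at 24 h, and −1.05 (SE 0.0783, adjusted p = 3.53e-08) under 8AA at 24 h by edgeR's Benjamini-Hochberg adjusted quasi-likelihood test. In MV4-11 at 24 h it was −0.29 under 8CA and −0.20 under 8AA, the call under 8AA being lost without untreated A or 8AA A. DNAJA3, the J-domain partner of HSPA9, fell under 8AA by 0.36 at 8 h and by 0.65 at 24 h in KG-1a, and under 8CA at 24 h it was at 0.04, not called.

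**Figure D3:**
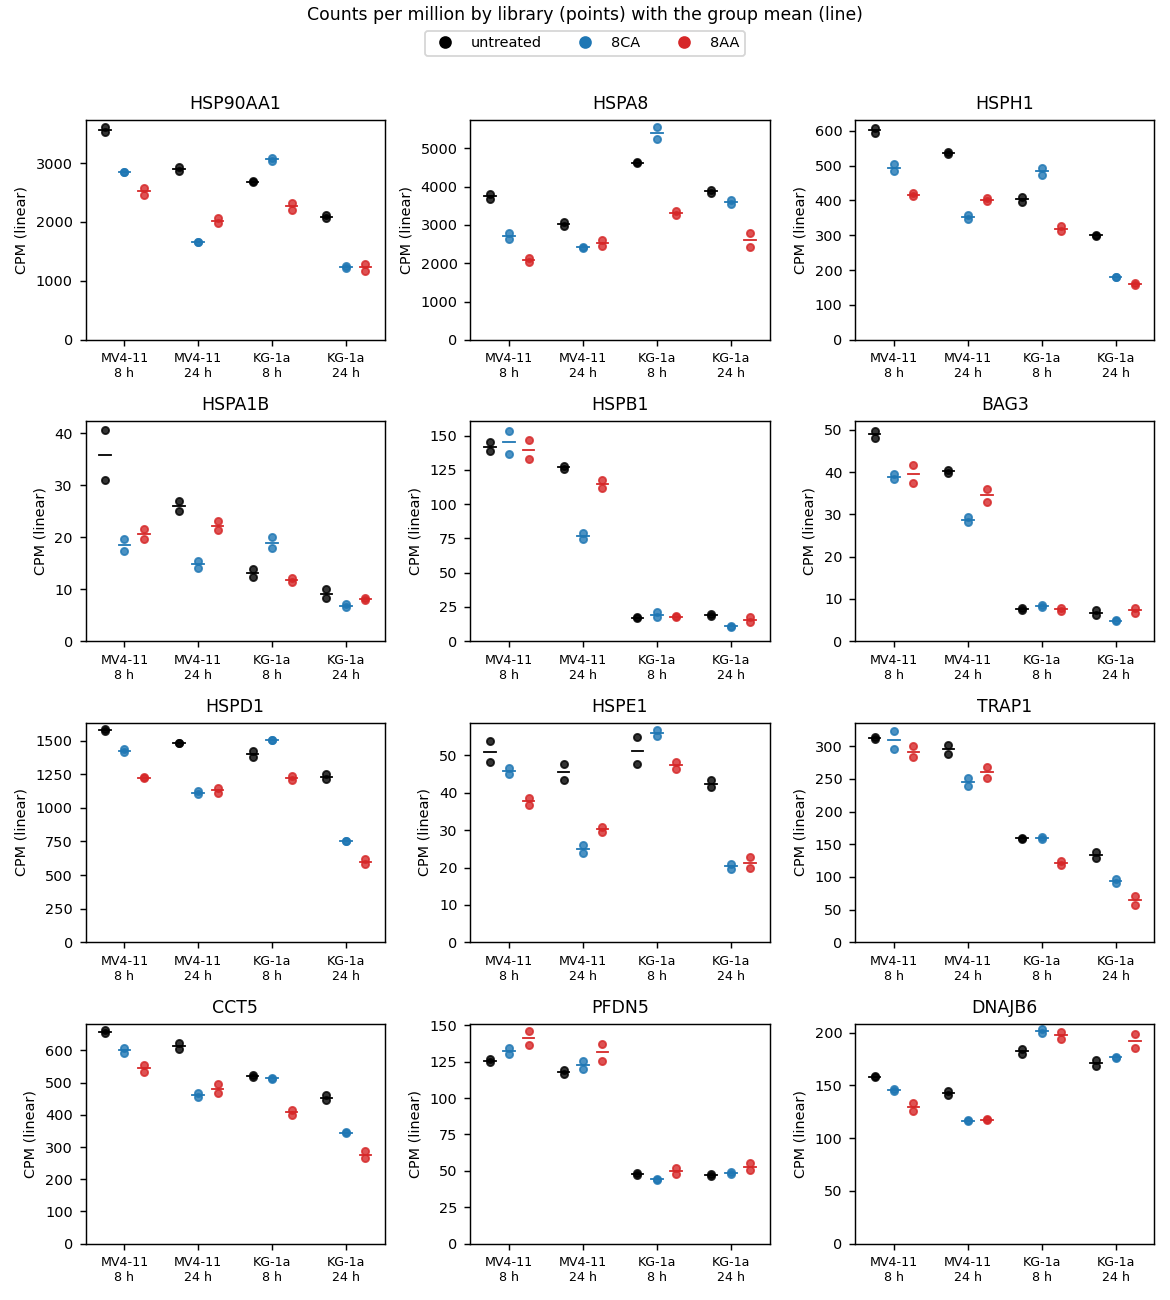
CPM (linear axis from 0) of 12 members in each library (points) with the mean of each group of 2 (line), for untreated (black), 8CA (blue) and 8AA (red) cells of both lines at 8 h and 24 h. HSPD1 in KG-1a at 24 h steps down from untreated to 8CA to 8AA, while HSPB1 is lowest under 8CA in both lines at 24 h.

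TRiC is a ring of related subunits that folds actin and tubulin among other proteins, and 7 or 8 of its 8 genes fell in 6 of the 8 comparisons. In MV4-11 4 of 8 fell under 8CA at 8 h (median −0.14), 7 under 8AA at 8 h (−0.29), and 7 at 24 h under 8CA (−0.34) and under 8AA (−0.29). KG-1a had 0 calls under 8CA at 8 h, 7 lower under 8AA at 8 h (−0.27), and 8 of 8 lower at 24 h under 8CA (−0.44) and under 8AA (−0.63). The summed level in KG-1a at 24 h was 3573 and 3546 CPM untreated, 2630.3 and 2625 under 8CA and 2459 and 2227 under 8AA. In MV4-11 at 24 h the sum was 4657 and 4648 untreated, 3862 and 3951 under 8CA and 3835 and 4022 under 8AA. The groups of KG-1a did not overlap, and the drugs overlapped in MV4-11. Under 8AA at 24 h in KG-1a the subunits ranged from −0.71 for CCT5 to −0.43 for CCT8, with TCP1 at −0.65, CCT2 at −0.61, CCT3 at −0.53, CCT4 at −0.67, CCT6A at −0.65 and CCT7 at −0.60. CCT8 was the subunit not called in MV4-11 under 8AA at 8 h and with both drugs at 24 h, at −0.07, 0.02 and −0.12.

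Prefoldin captures chains as they leave the ribosome and hands them to TRiC, and its genes did not move together. In MV4-11 1 of 5 fell under 8CA at 8 h (20% against 5.77% of all genes) and 2 in each of the other 3 comparisons (40% against 15.3% to 22.7%). KG-1a had 0 calls under 8CA at 8 h and 1 lower under 8AA at 8 h (20%, near the 18.0% of all genes). At 24 h KG-1a had 3 lower under 8CA (60% against 24.0%). Under 8AA at 24 h it had 3 lower (60% against 26.6%) and 1 higher (20% against 25.4%). PFDN2 was at 70.4 and 67.5 CPM untreated, 58.3 and 60.5 under 8CA, and 53.6 and 53.0 under 8AA in MV4-11 at 8 h. The 24 h levels of PFDN2 were 58.7 and 60.7 CPM untreated, 52.0 and 46.9 under 8CA, and 47.4 and 53.5 under 8AA. Each treated library of MV4-11 was below untreated. In KG-1a the levels of PFDN2 were 52.5 and 50.0 CPM untreated, 50.8 and 47.6 under 8CA, and 37.7 and 33.5 under 8AA at 8 h. By 24 h PFDN2 was at 39.4 and 38.0 CPM untreated, 32.3 and 31.3 under 8CA, and 28.0 and 22.1 under 8AA. In KG-1a libraries overlapped under 8CA at 8 h, and the other treated groups were below untreated. Under 8AA it changed by −0.40 at 8 h and −0.26 at 24 h in MV4-11, and by −0.52 and −0.62 in KG-1a. Its calls under 8CA at 8 h in MV4-11 (−0.22) and at 24 h in KG-1a (−0.28) were lost with any of the 4 libraries left out, and that under 8AA at 24 h in MV4-11 without untreated B or 8AA A. PFDN5, also known as MM-1 for its binding to MYC, was called lower in no comparison. It ranged from −0.11 to 0.17 over the 8 comparisons, and its single call was an increase under 8AA in KG-1a at 24 h, lost without untreated A, untreated B or 8AA A. At 24 h in KG-1a PFDN6 fell with both drugs (−0.45 and −0.51), PFDN1 under 8CA (−0.38) and PFDN4 under 8AA (−0.48).

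The heat shock factors, which drive transcription of many members, had 3 calls in all, 2 for HSF1 and 1 for HSF2. Under 8AA, 1 of 2 fell at 8 h in MV4-11 (15.6% of all genes) and 2 of 2 at 24 h in KG-1a (26.6%). Neither was called in the other comparisons, where 0.181% to 24.0% of all genes were lower and 0.7% to 23.4% higher. HSF1 was at 160.3 and 163 CPM untreated, 151 and 159 under 8CA, and 144 and 153 under 8AA in MV4-11 at 8 h. Levels of HSF1 at 24 h were 162 and 166 CPM untreated, 164 and 172 under 8CA, and 159.9 and 163 under 8AA. Both treated groups of MV4-11 were below untreated at 8 h and overlapped it at 24 h. In KG-1a HSF1 was at 139.9 and 133 CPM untreated, 135 and 134 under 8CA, and 127 and 122 under 8AA at 8 h. For HSF1 the 24 h values were 132 and 131 CPM untreated, 132 and 131 under 8CA, and 116 and 106 under 8AA. At both times the KG-1a libraries overlapped untreated under 8CA and were below it under 8AA. HSF1 fell under 8AA at 8 h in MV4-11 (−0.15, a call lost without untreated B or 8AA A) and at 24 h in KG-1a (−0.24). HSF2 was at 17.1 and 17.4 CPM untreated, 17.9 and 16.5 under 8CA, and 15.3 and 16.9 under 8AA in MV4-11 at 8 h. At 24 h HSF2 stood at 18.0 and 18.8 CPM untreated, 17.4 and 18.2 under 8CA, and 18.1 and 19.2 under 8AA. In MV4-11 the 8AA libraries at 8 h were below untreated, and the other treated groups overlapped it. The KG-1a levels of HSF2 were 40.3 and 44.6 CPM untreated, 46.1 and 46.4 under 8CA, and 42.0 and 45.1 under 8AA at 8 h. The 24 h levels of HSF2 were 48.7 and 48.8 CPM untreated, 44.0 and 43.7 under 8CA, and 43.7 and 40.9 under 8AA. At 8 h KG-1a was above untreated under 8CA and overlapped it under 8AA, and at 24 h both treated groups were below. Its 1 call, under 8AA at 24 h in KG-1a (−0.20), was lost without untreated A, untreated B or 8AA B. RNA levels do not measure the activity of these factors.

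The 7 members with a 3-unit heat shock element had medians of −0.33 under 8CA and −0.53 under 8AA at 8 h in MV4-11, against −0.14 and −0.30 in the 33 members without one. At 24 h in MV4-11 the medians were −0.49 and −0.37 against −0.31 and −0.24. In KG-1a the medians with and without the element were 0.15 and 0.06 under 8CA and −0.19 and −0.18 under 8AA at 8 h. The same values at 24 h were −0.56 and −0.42 under 8CA, and −0.58 and −0.51 under 8AA. HSPA1A and HSPA1B, which lack the 3-unit element in these windows, held the largest decreases in MV4-11 at 8 h under 8CA. HSPH1, DNAJB1, HSPB1 and BAG3 also lack it there, and the split rests only on exact letters in these windows.

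**Figure D4:**
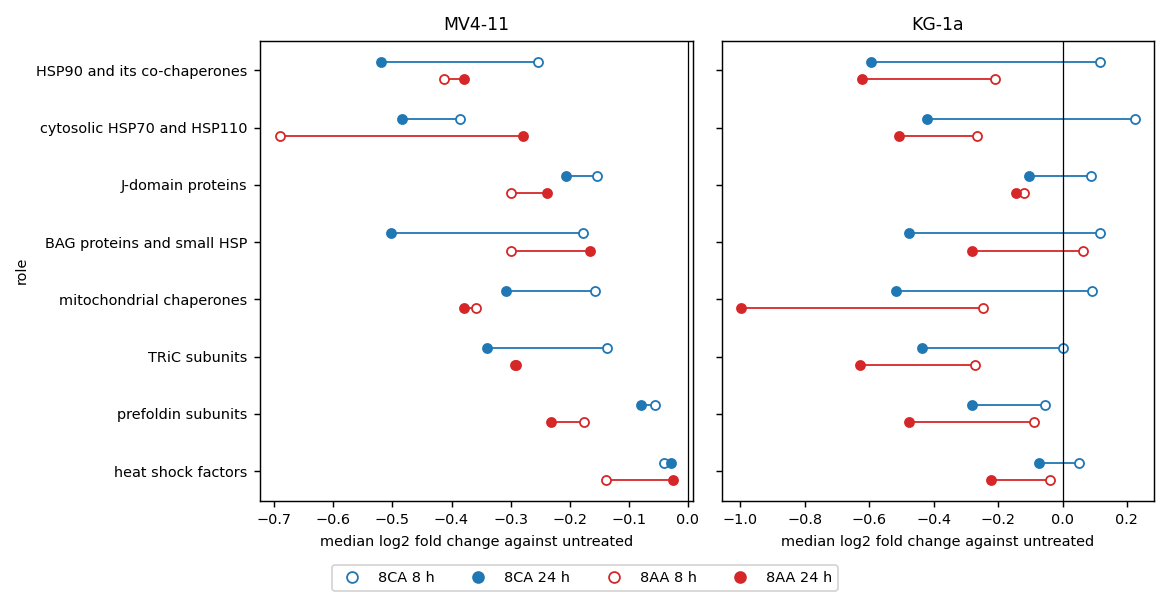
Median log2 fold change against untreated for the genes of each role, at 8 h (open) and 24 h (filled), under 8CA in blue and 8AA in red. In KG-1a the 8CA medians of most roles lie at or above 0 at 8 h and below 0 at 24 h, and mitochondrial chaperones under 8AA at 24 h lie lowest at −0.997.

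The drugs were then compared directly at 1 μM and the same time, in 4 comparisons with p-values adjusted over all genes tested. In MV4-11 at 8 h, 16 members were lower under 8AA than under 8CA and 0 higher, against 3.7% and 2.96% of all genes. Of these, 4 were called in every fit with 1 library left out. They were HSPA8 (−0.40), FKBP4 (−0.31), HSPH1 (−0.26) and HSPD1 (−0.24). The count was 10 without 8CA A, 6 without 8CA B and 5 without 8AA A. At 24 h in MV4-11, 13 members were higher and 3 lower under 8AA than under 8CA (11.7% and 9.48% of all genes). HSPA1A differed by 0.67, HSPA1B by 0.59, HSPB1 by 0.58, HSP90AA1 by 0.28 and HSPH1 by 0.19, and these 5 were called in every fit with 1 library left out. The summed counts of HSPA1A and HSPA1B differed by 0.63. The 3 lower members were DNAJC2, DNAJC7 and CCT8. The count higher was 5 without 8CA A and 8 without 8AA B, and the count lower was 1 without 8CA A or 8AA A.

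In KG-1a at 8 h, 31 members were lower under 8AA than under 8CA and 2 were higher, DNAJC9 and PFDN5 (15.8% and 14.7% of all genes). The largest differences by edgeR's Benjamini-Hochberg adjusted quasi-likelihood test were HSPA8 at −0.70 (SE 0.0563, adjusted p = 4.36e-07), HSPA1B at −0.68 (SE 0.101, adjusted p = 0.000134) and DNAJC2 at −0.60 (SE 0.0824, adjusted p = 6.57e-05), with the HSPA1A and HSPA1B sum at −0.67. In all, 22 calls were made in every fit with 1 library left out, and the count higher was 1 without 8CA A, 8CA B or 8AA A. At 24 h in KG-1a, 19 were lower and 7 higher under 8AA (21.7% and 20.3% of all genes), so that the lower share exceeded that of all genes and the higher share did not. HSPA9 differed by −0.72, DNAJA3 by −0.69, TRAP1 by −0.54, PFDN4 by −0.49 and HSPA8 by −0.47 on the log2 scale. BAG3 differed by 0.58 and HSPB1 by 0.55, both higher under 8AA. Here 18 calls were made in every fit with 1 library left out, and the count higher was 4 without 8CA B and 11 without 8AA B. Where a difference was not called, its interval bounds it. In KG-1a at 24 h CCT2 differed by 0.04 (95% interval −0.06 to 0.13) and HSPE1 by 0.06 (95% interval −0.13 to 0.25), and in MV4-11 at 24 h HSPD1 by 0.02 (95% interval −0.06 to 0.10) and HSPA8 by 0.06 (95% interval −0.03 to 0.16).

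**Figure D5:**
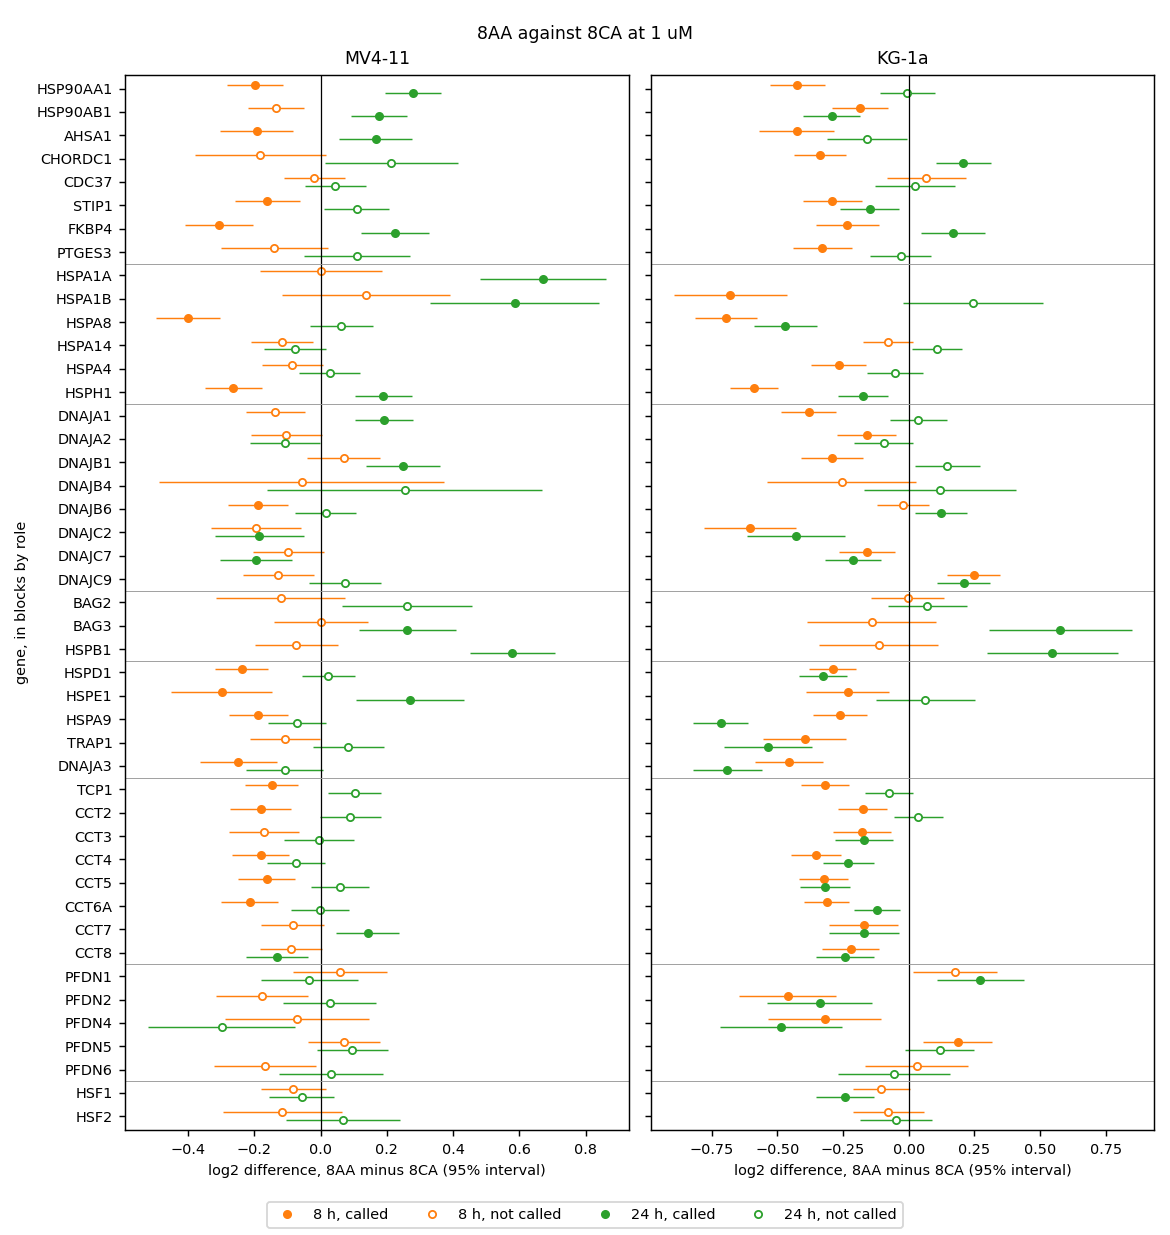
Log2 difference between 8AA and 8CA for each member with its 95% interval, at 8 h (orange) and 24 h (green), filled where called. In KG-1a most 8 h points lie below 0, and at 24 h HSPA9, DNAJA3 and TRAP1 lie below −0.50 while HSPB1 and BAG3 lie above 0.50.

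The change between times was tested as the 24 h response minus the 8 h response. Under 8CA in MV4-11, 16 members responded lower at 24 h and 0 higher (9.83% and 6.48% of all genes), led by HSPB1 (−0.76), HSPE1 (−0.71) and HSP90AA1 (−0.49). The count was 10 without 8CA 8 h B, untreated 24 h A or 8CA 24 h A, and 9 of the calls were made in every such fit. Under 8AA in MV4-11, 0 members responded lower and 3 higher (2.12% and 2.51% of all genes). They were HSPA1A (0.72, pair sum 0.66), HSPA8 (0.59) and DNAJA1 (0.26), of which DNAJA1 was not called in every fit with 1 library left out, and the count was 5 without 8AA 8 h A. In KG-1a under 8CA, 30 members responded lower at 24 h and 0 higher (12.7% and 11.2% of all genes), with HSPE1 at −1.19, HSPB1 at −1.01, HSPH1 at −0.996, HSPA1B at −0.95 (pair sum −0.95) and HSP90AA1 at −0.95. Under 8AA in KG-1a, 25 responded lower and 0 higher (10.7% and 7.64% of all genes), with HSPE1 at −0.89, HSPD1 at −0.85 and HSP90AB1 at −0.75, and 1 was higher without 8AA 24 h A. The KG-1a calls made in every fit with 1 library left out numbered 25 under 8CA and 19 under 8AA.

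Untreated cells also differed between 8 h and 24 h, and all members called were lower at 24 h. In MV4-11, 13 members were lower and 0 higher at 24 h (2.16% and 3.38% of all genes), with HSPA1A at −0.71, HSPA1B at −0.46 (pair sum −0.61), HSPA8 at −0.31 and HSP90AA1 at −0.30. The count was 4 or 5 with any of the 4 libraries left out, and HSP90AA1, HSPA1A, HSPA8 and DNAJA1 were called in each of these fits. In KG-1a, 16 were lower and 0 higher (1.97% and 2.49% of all genes), with HSPA1B at −0.51 (pair sum −0.49), HSPH1 at −0.41 and HSP90AA1 at −0.35. The count was 4 without untreated 8 h A and 2 without any other library, and HSP90AA1 and HSPH1 were called in each of these fits. The untreated baseline at 24 h was thus lower than at 8 h for these genes, and each response is measured against the baseline of its time. Under 8AA in MV4-11, HSPA1A was at 32.0 and 31.3 CPM at 8 h and 31.7 and 32.0 at 24 h. DNAJA1 there was at 290 and 293 CPM, then 284 and 300, while HSPA8 was at 2023 and 2145, then 2445 and 2596.

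Differences between the lines were tested as the MV4-11 response minus the KG-1a response, in a fit of all 24 libraries. Under 8CA at 8 h, 11 members responded lower in MV4-11 and 0 higher (0.726% and 0.427% of all genes). HSPA1B differed by −1.48 (pair sum −1.44), HSPA8 by −0.69, CHORDC1 by −0.56, HSPH1 and DNAJB1 by −0.54, and HSP90AA1 by −0.51. The count was 6 without untreated A of MV4-11 and 7 without untreated A or 8CA A of KG-1a, and 6 calls were made in every such fit. Under 8AA at 8 h, 9 responded lower in MV4-11 and 2 higher, TRAP1 and CCT8 (3.6% and 7.49% of all genes). HSPA8, DNAJB6 and DNAJC9 were called in every fit with 1 library left out. The lower count was 5 without untreated A or 8AA B of MV4-11 or 8AA B of KG-1a and 4 without untreated A or 8AA A of KG-1a, and the higher count was 0 in 7 of the 8 such fits. Under 8CA at 24 h, 1 member (DNAJB6, −0.34) responded lower and 7 higher in MV4-11 (5.44% and 5.76% of all genes), from 0.19 for TCP1 to 0.32 for PFDN1, and 4 were higher in 6 of the 8 fits with 1 library left out.

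At 24 h, 24 members responded higher to 8AA in MV4-11 than in KG-1a and 3 lower (13.8% and 8.51% of all genes). TRAP1 differed by 0.87 (SE 0.0983, adjusted p = 7.23e-07), HSPD1 by 0.65 (SE 0.0547, adjusted p = 1.38e-08) and HSPA9 by 0.52 (SE 0.0647, adjusted p = 2.88e-06), by edgeR's Benjamini-Hochberg adjusted quasi-likelihood test. All 8 TRiC subunits were among the 24, at 0.31 to 0.43. DNAJB6 (−0.45), DNAJC9 (−0.30) and HSPA14 (−0.17) were lower in MV4-11. In all, 16 calls were made in every fit with 1 library left out. Without library B of KG-1a under 8AA at 24 h, the pair with the wide spread, 15 were higher and 5 lower.

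Other folding genes, outside the set, give the context. Their counts stand against 22.7% lower and 21.2% higher of all genes under 8CA and 15.3% and 13.9% under 8AA in MV4-11 at 24 h. In KG-1a at 24 h the shares of all genes were 24.0% lower and 23.4% higher under 8CA, and 26.6% and 25.4% under 8AA. Of 16 chaperones of the endoplasmic reticulum (ER), MV4-11 had 14 lower (87.5%) and 0 higher under 8CA and 12 lower (75%) and 0 higher under 8AA, and KG-1a had 14 lower (87.5%) and 0 higher and 15 lower (93.8%) and 0 higher. At 8 h, 15 of the ER genes were lower under 8CA and 12 under 8AA in MV4-11 (5.77% and 15.6% of all genes), and 1 and 9 in KG-1a (0.181% and 18.0% of all genes). The ER HSP70 gene HSPA5 (BiP) changed at 24 h by −1.60 under 8CA and −0.93 under 8AA in KG-1a. Of 44 other cytosolic chaperones and co-chaperones tested in MV4-11 at 24 h, there were 17 lower (38.6%) and 4 higher (9.09%) under 8CA and 9 lower (20.5%) and 1 higher (2.27%) under 8AA. Of 42 tested in KG-1a, there were 14 lower (33.3%) and 7 higher (16.7%) under 8CA and 18 lower (42.9%) and 4 higher (9.52%) under 8AA. At 8 h in MV4-11 these genes had 4 lower (9.09%) and 1 higher (2.27%) under 8CA and 10 lower (22.7%) and 2 higher (4.55%) under 8AA. At 8 h in KG-1a they had 0 calls under 8CA, and 6 lower (14.3%) and 4 higher (9.52%) under 8AA. Other mitochondrial folding and protease genes had 6 lower (37.5%) and 0 higher under 8CA and 10 lower (62.5%) and 1 higher (6.25%) under 8AA among 16 in MV4-11 at 24 h. Among 15 in KG-1a there were 6 lower (40%) and 4 higher (26.7%) under 8CA and 12 lower (80%) and 1 higher (6.67%) under 8AA, with GRPEL1, the nucleotide exchange factor of mitochondrial HSP70, at −0.86. At 8 h in MV4-11 these genes had 2 lower (12.5%) and 0 higher under 8CA and 8 lower (50%) and 0 higher under 8AA. At 8 h in KG-1a they had 0 lower and 1 higher (6.67%) under 8CA and 6 lower (40%) and 0 higher under 8AA. Further genes known as HSF1 targets had 4 lower (26.7%) and 3 higher (20%) under 8CA, near the shares of all genes, and 4 lower (26.7%) and 1 higher (6.67%) under 8AA among 15 in MV4-11 at 24 h. Among 14 in KG-1a there were 6 lower (42.9%) and 6 higher (42.9%) under 8CA and 5 lower (35.7%) and 2 higher (14.3%) under 8AA. At 8 h in MV4-11 these genes had 3 lower (20%) and 1 higher (6.67%) under 8CA and 2 lower (13.3%) and 2 higher (13.3%) under 8AA. At 8 h in KG-1a they had 0 lower and 1 higher (7.14%) under 8CA and 1 lower (7.14%) and 6 higher (42.9%) under 8AA.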

How the data were processed

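RNA of the 24 libraries (12 groups of 2) was followed in a table of raw counts, deposited by the authors as the whole number of reads on each of 23354 genes, with no normalization. The submitters' processing notes name Trimmomatic, STAR 2.6.0, HTSeq 0.11.1, edgeR and the builds hg19 and hg38, without roles or order. The table names no build, and 52 of 21956 symbols share their start with RefSeq on GRCh38, so its coordinates were not mixed with GRCh38 sequence. Strand use in counting is not stated. Among the members, 11 overlap the listed interval of another gene on the same strand and 18 on the opposite strand. By name, 16 have pseudogenes in GENCODE 29, so these counts could be shared or split. Only names made of the member's symbol with P and a number were searched, so pseudogenes named otherwise were missed. LOC100132062 and LOC100133331 each overlap DNAJB4, CCT3 and PFDN2, and MIR548AR overlaps DNAJB6, DNAJC2 and HSPB1. These members lie far apart, so such intervals need not share reads, and the overlap counts may be too high.

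Genes were kept by edgeR's filterByExpr (minimum count 10) and libraries scaled by TMM. The quasi-likelihood test of edgeR 4.0.16 in R 4.3.3, two-sided, was fitted with 1 coefficient per group to the 12 libraries of a line, or to all 24 for differences between lines, and adjusted by Benjamini-Hochberg over all genes tested at a threshold of 0.05. The paper's text names no differential expression tool. The steps were tested on simulated data. CPM were scaled by TMM over all 24 libraries and RPKM divide them by the deposited exon length.

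The members and the further lists were chosen with earlier results of these data known. By rule, values in every library were given for HSPA1A, HSPA1B, HSPH1, DNAJB1, HSPB1, BAG3, HSP90AA1, HSP90AB1, HSPA8, HSPD1, HSPE1, HSPA9, HSF1 and HSF2 and for the 2 members with the largest called change in each comparison with untreated. The text also names other members by role and, of the further lists, genes among the 3 largest called changes of a comparison at 24 h. Alternatives were DESeq2 size factors, library size only, upper quartile, no filter, a log2 fold change of at least 0.5, the replicate letter as a block, the Wald test of DESeq2 1.42.0, leaving out each library, and the summed HSPA1A and HSPA1B counts. No sample column was left unused.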

Additional observations from a re-analysis of the deposited data

Results flagged for a closer look

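The responses at 24 h and 8 h differed by the test of the difference for 16 members under 8CA and 3 under 8AA in MV4-11, and for 30 under 8CA and 25 under 8AA in KG-1a. In the same order, 9.83%, 2.12%, 12.7% and 10.7% of all genes responded lower at 24 h. The shares that responded higher were 6.48%, 2.51%, 11.2% and 7.64%. In KG-1a under 8CA, HSPA1B (difference −0.95, adjusted p = 0.000644 by edgeR's Benjamini-Hochberg adjusted quasi-likelihood test) and HSPH1 (−0.996, adjusted p = 4.85e-08 by the same test) were called higher at 8 h and lower at 24 h, and both calls at 8 h were lost when single libraries were left out.

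The responses of MV4-11 and KG-1a differed for 11 members under 8CA and 11 under 8AA at 8 h, and for 8 under 8CA and 27 under 8AA at 24 h. In the same order, 0.726%, 3.6%, 5.44% and 8.51% of all genes responded lower in MV4-11. The shares that responded higher were 0.427%, 7.49%, 5.76% and 13.8%. Members called in opposite directions in the lines were HSPA1B (−1.48, summed with HSPA1A −1.44, adjusted p = 6.29e-06) and HSPH1 (−0.54, adjusted p = 3.92e-06) under 8CA at 8 h, DNAJB6 (−0.40, adjusted p = 0.000128) and DNAJC9 (−0.43, adjusted p = 0.000139) under 8AA at 8 h, and DNAJB6 (−0.45, adjusted p = 1.02e-05) under 8AA at 24 h, all lower in MV4-11 by edgeR's Benjamini-Hochberg adjusted quasi-likelihood test. The calls of DNAJC9 in MV4-11 and of DNAJB6 in KG-1a were lost when single libraries were left out.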

How the results depend on the processing

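Over all alternatives, 493 of 594 recomputed counts of called members stayed within 1.5 times the reported count. Of 5896 recomputed fold changes of called members, 0 changed direction and 710 lost their call, 560 of them by leaving out 1 library. With a log2 fold change of at least 0.5 also required, the lower counts were 2, 8, 11 and 2 in MV4-11 (8CA 8 h, 8AA 8 h, 8CA 24 h, 8AA 24 h), 2 in KG-1a with 8AA at 8 h and 15 with 8CA at 24 h, and the higher counts in KG-1a were 1 (8CA 8 h), 0 (8AA 8 h) and 0 (8AA 24 h). These counts have no matching share of all genes.

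In MV4-11 with 8AA the higher count was 2 at 8 h and 1 at 24 h by library size only or upper quartile, and 1 at each time with the replicate block. In KG-1a with 8CA at 8 h it was 4 by library size only, with the replicate block and by DESeq2's Wald test, and 5 with no filter. In KG-1a with 8AA it was 1 at 8 h by DESeq2 size factors, with no filter or by DESeq2's test, and at 24 h 4 by library size only or upper quartile and 1 by DESeq2's test. It was 1 for 8AA against 8CA in KG-1a at 8 h by DESeq2's test and 1 for untreated KG-1a by library size only. For the line difference with 8AA at 8 h, 16 were lower with no filter, and 0 were higher by DESeq2 size factors, upper quartile, the replicate block or DESeq2's test, against 1 by library size only or with no filter. For that with 8CA at 24 h, 2 were lower by library size only, upper quartile, no filter or DESeq2's test, and 4 higher by upper quartile. Their cause was not tested. Summing HSPA1A and HSPA1B in the comparisons between drugs, times and lines was added after the data were seen, and left each count within 1.5 times.

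Leaving out 1 library gave, against untreated, 14 to 18 lower (MV4-11 8CA 8 h) and 0 to 1 higher (MV4-11 8AA 8 h and 24 h, KG-1a 8CA 8 h), 1 in each fit (KG-1a 8AA 8 h) and 0 to 2 (KG-1a 8AA 24 h). Between drugs it gave 5 to 12 lower (MV4-11 8 h), 1 to 2 lower and 5 to 12 higher (MV4-11 24 h), and 1 to 2 and 4 to 11 higher (KG-1a 8 h and 24 h). Between times it gave 10 to 15 lower (MV4-11 8CA), 2 to 5 higher (MV4-11 8AA), 0 to 1 higher (KG-1a 8AA), and 4 to 5 and 2 to 4 lower (untreated MV4-11 and KG-1a). Between lines it gave 6 to 9 lower (8CA 8 h), 4 to 10 lower and 0 to 2 higher (8AA 8 h), 4 to 5 higher (8CA 24 h), and 2 to 5 lower and 15 to 26 higher (8AA 24 h).

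Libraries with the same letter were not shown to pair, since their deviations correlated at −0.07 to 0.11 in MV4-11 and −0.08 to 0.12 in KG-1a over 15 pairs of groups in each line, although 10 of 12 libraries of each line correlated better with their own letter. In that count the 2 libraries of a group mirror each other and always agree, so they are not separate observations. The replicate block lost 4 of 521 calls. Over all genes, the share of calls that were lower, by TMM and then by library size only, was 55.8% and 38.3% in MV4-11 with 8CA at 8 h, 53.4% and 38.8% with 8AA at 8 h, 51.8% and 41.1% with 8CA at 24 h and 52.4% and 36.2% with 8AA at 24 h, and in KG-1a with 8AA 51.9% and 41.8% at 8 h and 51.2% and 35.5% at 24 h. Library size only moved this split by over 10 points in 11 of 23 comparisons, upper quartile in 9. No scaling moved the median of all genes by over 0.1.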
